A study of Macaca mulatta with 24 samples.

Results

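The genes described here are 4 markers of microglia and other leukocytes, CD53, CD68, TYROBP and ITGAM, in the frontal cortex of young rhesus monkeys. They were chosen by their measured differences between cortical areas: CD53 and CD68 were highest in prefrontal cortex, TYROBP and ITGAM in motor cortex. Their area differences are therefore given as a description, without a test, and tests are kept for comparisons that did not choose them. Of the 14132 genes named by a probe set with a single symbol, these 4 have 7 probe sets: 3 for CD53, 2 for CD68 and 1 each for TYROBP and ITGAM. Of these, 6 passed the filter on low values (mean log2 intensity of at least 5.62 over all arrays), and the remaining CD68 probe set did not.

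The tissue was neocortex of Macaca mulatta from 4 areas: the prefrontal area on the banks of the principal sulcus (A46), ventral and dorsal premotor cortex behind the arcuate sulcus (PMv and PMd), and the forelimb part of primary motor cortex (M1). Left and right pieces came from each of 3 untreated animals reared in group cages, which gave 24 arrays, 6 per area. Animals 1 and 2 were males aged 2.7 and 2.6 years, and animal 3 was a female aged 2.7 years. Each animal received a pentobarbital overdose and was perfused with heparinised ice-cold saline before dissection, and every group shares this treatment. The pieces were whole dissected cortex, so each value is a mean over all its cell types, and a lower value from fewer cells of a type cannot be told apart from one with less RNA per cell.

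Microglia are the resident phagocytes of the brain and share most of their surface and signalling genes with blood monocytes and tissue macrophages. They sense damage through receptors such as TREM2, which signal through the adaptor TYROBP, and they bind complement-tagged material through the integrin of ITGAM and ITGB2. Material that is taken up is degraded in lysosomes, where the CD68 glycoprotein resides, while CD53 is a leukocyte tetraspanin, one of a family of membrane proteins that organise receptors and integrins into clusters.

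Array medians ran from 47.9 to 51.7 in linear intensity, and any pair of arrays correlated at 0.977 to 0.997 across probe sets. RNA integrity was read from the log2 ratio of 3' to 5' signal of actin, whose median was 1.09 for A46, 1.11 for PMv, 1.03 for PMd and 0.94 for M1, with overlapping ranges. The same ratio for GAPDH was 0.84 in A46 and 0.95 in M1. The part of RNA integrity in the results below was not tested. Values are log2 intensities and differences are log2 differences of means over 3 animals, with the standard error (SE) of limma's fit or the SD over animals. The 3 animals limit the precision.

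CD53 showed the widest area difference of the 4 genes, in 2 of its 3 probe sets. The first probe set, the brightest of the 3 by its mean over all arrays, had a median of 8.35 in A46 (lowest array 8.22, highest 8.45). In PMv the median was 7.58 (7.41 to 7.70), in PMd 7.71 (7.59 to 8.05) and in M1 7.47 (7.28 to 7.60). All 6 A46 arrays lay above all 18 motor and premotor arrays, with a gap of 0.17, while the ranges of PMv, PMd and M1 overlapped. M1 was lower than A46 by a log2 difference of -0.88 (SE 0.07), or 1.84-fold, at -0.86, -0.83 and -0.96 in animals 1, 2 and 3.

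The second CD53 probe set (MmuSTS.3532.1.S1_at) separated A46 further. A46 had a median of 8.82 (8.38 to 8.87), PMv of 7.33 (7.19 to 7.67), PMd of 7.55 (7.12 to 7.93) and M1 of 7.20 (6.76 to 7.35). Here too no motor array reached the lowest A46 array, and the gap was 0.45. M1 was lower by -1.61 (SE 0.09), or 3.05-fold, PMv by -1.32 (SE 0.09) and PMd by -1.18 (SE 0.09). By the size of the difference it ranked 1 from the lowest of all 26383 tested probe sets in each of these comparisons with A46. Animal 3 had lower levels on this probe set than animals 1 and 2 in every area (8.46 in A46 against 8.84 in both others), yet its M1 difference of -1.66 was close to their -1.57 and -1.59.

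The third CD53 probe set (MmugDNA.10747.1.S1_at) showed no such step. Its medians were 6.24 (A46), 6.18 (PMv), 6.19 (PMd) and 6.17 (M1), and the M1 difference was -0.01 (SE 0.08). The values of the 3 animals straddled 0 (0.06, -0.13 and 0.05). The 3 probe sets of CD53 thus disagree: over the 12 animal-by-area means, with each animal's mean removed, the first and second correlated at 0.98, and the third correlated with them at -0.03 and -0.04. These points share animals and arrays, and the correlations are a description. The third was also much dimmer, at a mean intensity of 73.1 in A46 beside 324.5 and 420.4 for the first and second. Array medians ran from 47.9 to 51.7. Whether it could show such a step at that level, and what transcript each probe set detects, was not tested.

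**Figure D1:**
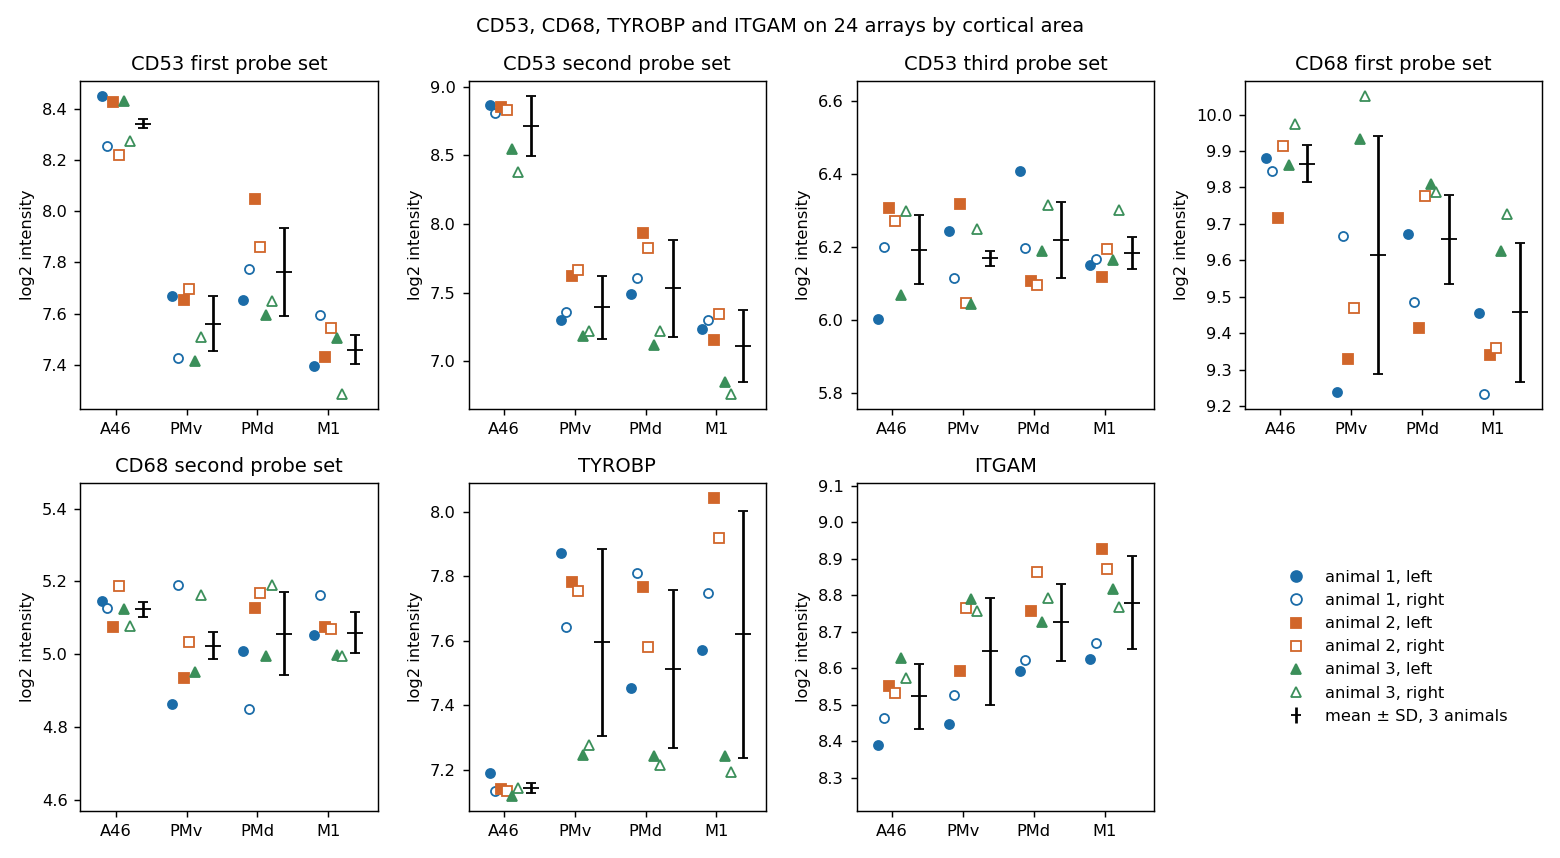
Log2 intensity of each probe set on all 24 arrays by area; filled points are left and open points right hemispheres, the shape marks the animal, and the bar is the mean ± SD of 3 animals. On the first and second CD53 probe sets the 6 A46 arrays lie above every motor array, while on TYROBP they lie below, with the motor arrays of animal 3 only just above them.

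CD68, the lysosomal glycoprotein used as a marker of phagocytic microglia and macrophages, was also highest in A46, but with overlap. On its brighter probe set (MmugDNA.11447.1.S1_at) A46 had a median of 9.87 (9.72 to 9.97) and M1 of 9.41 (9.23 to 9.73), with PMv at 9.57 (9.24 to 10.05) and PMd at 9.72 (9.41 to 9.81) between them. Of the 6 M1 arrays 5 lay below the lowest A46 array, and of all 18 motor arrays 12 did. M1 was lower than A46 by -0.41 (SE 0.08), PMv by -0.25 (SE 0.08) and PMd by -0.21 (SE 0.08).

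Animal 3 differed from the others in PMv. Its CD68 level there was 9.99, above its own A46 level of 9.92, whereas animals 1 and 2 had 9.45 and 9.40 in PMv against 9.86 and 9.82 in A46. The PMv difference was thus -0.41 and -0.42 in animals 1 and 2 and 0.07 in animal 3. The M1 difference had one sign throughout, at -0.52, -0.47 and -0.24. The dim CD68 probe set (MmuSTS.3489.1.S1_at), at 5.12 in A46 and 5.06 in M1, lay below the filter and differed by -0.06.

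TYROBP, the adaptor that carries an activating tyrosine motif for TREM2 and related receptors, was lowest in A46. The 6 A46 arrays of its probe set (MmugDNA.7359.1.S1_s_at) lay close together, with a median of 7.14 (7.12 to 7.19). The motor areas were wider, with medians of 7.70 for PMv (7.25 to 7.87), 7.52 for PMd (7.22 to 7.81) and 7.66 for M1 (7.19 to 8.04). All 18 motor arrays were above all 6 A46 arrays, although by only 0.00099 between the nearest pair, a right M1 piece of animal 3 and a left A46 piece of animal 1. M1 exceeded A46 by 0.48 (SE 0.11), PMv by 0.45 (SE 0.11) and PMd by 0.37 (SE 0.11).

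The size of the TYROBP difference depended on the animal. In A46 the animals had 7.16, 7.14 and 7.13, an SD of 0.02. In M1 they had 7.66, 7.98 and 7.22, an SD of 0.38. The M1 difference was therefore 0.50 in animal 1, 0.85 in animal 2 and 0.09 in animal 3, and the PMv difference 0.59, 0.63 and 0.13. Without animal 2 the M1 difference was 0.29, and without animal 3 it was 0.67. The suffix of the probe set's name marks probes that can match more than 1 transcript, so the signal may not be TYROBP alone.

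**Figure D2:**
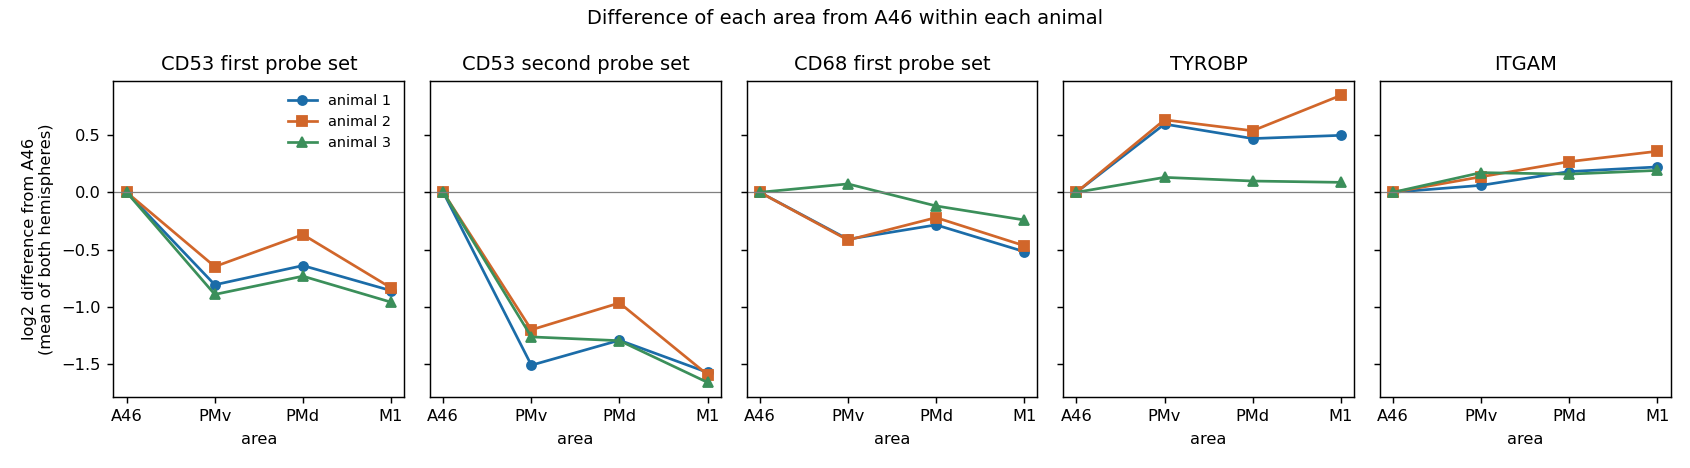
Log2 difference of each area from A46 within each animal (both hemispheres averaged), 1 line per animal. On the second CD53 probe set the 3 animals lie close in M1 (-1.57 to -1.66) and further apart in PMd (-0.96 to -1.29). TYROBP in animal 3 stays within 0.13 of A46 and reaches 0.85 in animal 2.

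ITGAM, the alpha chain of complement receptor 3 (CD11b), had the narrowest area difference of the 4 genes on their brightest probe sets. Its probe set (MmugDNA.6976.1.S1_at) had a median of 8.54 (8.39 to 8.63) on the A46 arrays and 8.79 (8.62 to 8.93) on the M1 arrays, with PMv at 8.67 (8.45 to 8.79) and PMd at 8.74 (8.59 to 8.86). The areas overlapped, with 5 of 6 M1 arrays and 12 of 18 motor arrays above the highest A46 array. M1 exceeded A46 by 0.26 (SE 0.06), or 1.19-fold, PMd by 0.20 (SE 0.06) and PMv by 0.12 (SE 0.06). The M1 difference was 0.22, 0.36 and 0.19 in animals 1, 2 and 3, so animal 3, in which TYROBP differed by 0.09, was close to animal 1 in ITGAM.

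In order of their means over animals CD53 ran A46, PMd, PMv, M1 on both separating probe sets, CD68 ran A46, PMd, PMv, M1, and TYROBP ran M1, PMv, PMd, A46. ITGAM ran M1, PMd, PMv, A46. Neighbouring areas in these orders overlapped in their arrays, except at the step next to A46 for both CD53 probe sets and, by the gap of 0.00099, for TYROBP. For TYROBP the means of M1 and PMv were 7.62 and 7.60, and their medians stood in the opposite order. Complete separation of A46 was uncommon on the array: 0.216% of tested probe sets had all A46 arrays above all motor arrays, and 0.337% had them below. Since area values chose the 4 genes, this background is given for scale and nothing is read from it.

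The premotor areas and the hemispheres did not enter that choice and were tested. In PMd minus PMv limma called 0 of the 6 tested probe sets, beside 0.00758% of all tested (2 of 26383 called, and 1425 at an unadjusted p under 0.05). The first CD53 probe set had the smallest p, at 0.20 higher in PMd (SE 0.07, limma adjusted p = 0.854), higher in 3 of 3 animals. The second CD53 probe set was at 0.14 (SE 0.09) and ITGAM at 0.08 (SE 0.06), each higher in PMd in 2 of 3 animals. CD68 was at 0.04 (SE 0.08) and TYROBP at -0.08 (SE 0.11). These did not pass, with limma adjusted p-values of 0.854 to 0.940.

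Averaged over the areas, left minus right differences lay between -0.08 (CD68, SE 0.05) and 0.05 (the first CD53 probe set, SE 0.05), with limma adjusted p-values of 0.733 to 0.980. None of the 6 probe sets was called, nor was any on the array (0%, with 2022 of 26383 at an unadjusted p under 0.05). TYROBP was higher on the left in 8 of 12 animal-by-area pairs and CD68 in 4 of 12. Within single areas the differences reached -0.23 for CD68 in PMv, lower on the left in 3 of 3 animals and about as large as its PMv difference from A46 of -0.25. The first CD53 probe set was higher on the left in A46 by 0.19, in 3 of 3 animals. Whether the hemisphere difference varied with the area was tested by an F test, which called 0 of the 6 and 0% of all (1113 at an unadjusted p under 0.05). The 12 pairs come from 3 animals, so these p-values rest on more units than animals.

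Each hemisphere gave the area differences on its own. In left pieces M1 minus A46 was -1.67 for the second CD53 probe set, -0.99 for the first, -0.35 for CD68, 0.47 for TYROBP and 0.27 for ITGAM. In right pieces it was -1.54, -0.77, -0.47, 0.48 and 0.25 in the same order. The pieces are separate dissections of the same animals, not further animals.

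**Figure D3:**
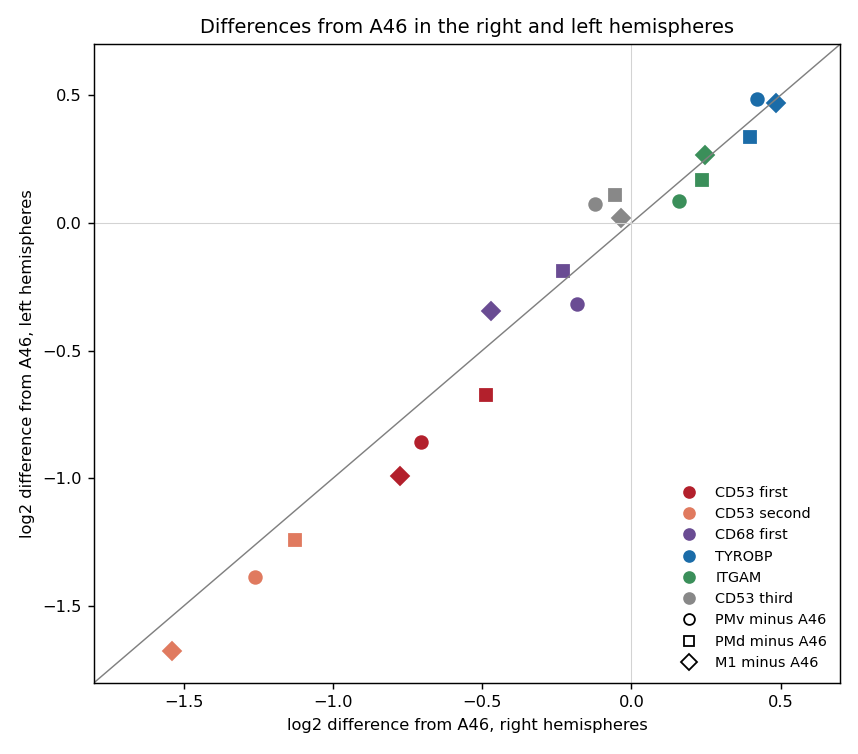
Log2 difference of PMv, PMd and M1 from A46 in left (vertical axis) against right hemispheres (horizontal axis), each a mean of 3 animals; the line marks equal values. TYROBP and ITGAM are above 0 and CD53 (first and second probe sets) and CD68 below 0 on both axes, and the third CD53 probe set lies near the origin.

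The 4 genes were also set against each other over the 12 animal-by-area means, with each animal's mean removed. CD68 correlated with the first CD53 probe set at 0.79 and with the second at 0.84, and TYROBP with ITGAM at 0.76. Between the pairs the values were -0.80 (CD53, first probe set, and TYROBP), -0.78 (CD53 and ITGAM), -0.84 (CD68 and TYROBP) and -0.66 (CD68 and ITGAM). The genes were chosen for opposite area differences and the points share arrays, so these signs follow from the choice.

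The genes most like each of the 4 were taken by the same correlation among all other tested genes. For CD53, on both separating probe sets, they included the homeobox gene PKNOX2 (0.97 and 0.98) and the troponin TNNT2 (0.97 and 0.99), with ETV6, PRAG1 and ARF5 following for the first and TMOD1, PRAG1 and PYGO2 for the second. For CD68 they were DEAF1 (0.99), RBM12B (0.99), SLC1A4, CZIB and MRTFB, for TYROBP CDK4 (0.97), COX15 (0.95), AUP1, VCAN and HNRNPUL1, and for ITGAM FUNDC2 (0.99), CKAP5 (0.98), TAF12, PAQR4 and NUDT5. None of these genes is in the immune lists described below, which hold only 127 of the 10043 tested genes, so nothing is read from their absence. Each value is the highest among many genes over means that share animals and arrays, and is a description. The most alike immune gene was C1S for CD53, at 0.86 and rank 147 of the other genes on the first probe set. It was F13A1 for CD68 (0.97, rank 10), the lysosomal cholesterol carrier NPC2 for TYROBP (0.92, rank 25) and complement factor CFD for ITGAM (0.94, rank 72).

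Other genes of the same cells and pathways were taken from 13 immune lists, without the 4 genes. Of 279 listed symbols 192 are on the array and 127 had a probe set above the filter, represented by the brightest. In M1 minus A46, 12 of the 127 (9.45%) rose and 3 (2.36%) fell, beside 8.77% and 5.89% of all 10043 tested genes. The median difference was -0.01, and -0.0012 over all genes. Against A46 the mean of the 3 motor areas gave 8 higher (6.3%) and 3 lower (2.36%), beside 6.4% and 4.59%. In the upward direction the share was thus near the background, and in the downward direction it was below the background in both comparisons, on 3 genes each. Calls on the whole array also fell without animal 2, from 3391 to 404 probe sets in M1 minus A46, so the difference is given beside each call lost below. Without animal 2 the immune counts were 2 in M1 and 0 in the motor areas, and without animal 1 they were 9 and 6. Without animal 3 they were 18 and 24, but calls on the whole array also rose. They went from 3391 to 5407 probe sets in M1 minus A46 and from 2629 to 6459 in the motor areas.

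Of 15 microglia markers tested, which leave out the 4 genes, 0 passed in M1 minus A46 or in the motor areas (1 in each at an unadjusted p under 0.05), with medians of 0.04 and 0.07. Over all genes 8.77% rose and 5.89% fell in M1, and 6.4% and 4.59% in the motor areas. In a list of 15 genes, 0 calls is not far from that share. The purinergic receptor P2RY12, a marker of resting microglia, differed by 0.22 (SE 0.11, limma adjusted p = 0.243) and the growth factor receptor CSF1R by 0.10 (SE 0.07). The fractalkine receptor CX3CR1 was at 0.03 (SE 0.09) and the calcium-binding protein AIF1 at -0.01 (SE 0.09). Of the complement C1q chains C1QA was at -0.02, C1QB at -0.08 and C1QC at 0.08. The summed intensity of the 15 genes was 2106 to 2286 over the A46 arrays and 2082 to 2361 over the M1 arrays. Without animal 3, 2 of the 15 passed in the motor areas, where calls on the whole array rose from 2629 to 6459 probe sets. PTPRC, the common leukocyte antigen CD45, is on the array but lay below the filter, and the SPI1 symbol was not matched.

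The direct partners of TYROBP and ITGAM that could be tested did not pass. TREM2, the receptor that signals through TYROBP, was at 0.04 (SE 0.08, limma adjusted p = 0.797). ITGB2, the beta chain that pairs with ITGAM, was at -0.07 (SE 0.08, limma adjusted p = 0.646) on its brighter probe set and at 0.09 on the other. SYK, the kinase recruited to phosphorylated TYROBP, lay below the filter. Of 11 TYROBP-receptor and tyrosine-motif signalling genes 1 rose in M1 (9.09%) and 0 passed in the motor areas. Over all genes 8.77% rose and 5.89% fell in M1, and 6.4% and 4.59% in the motor areas, so these counts are near the background. The gene that rose was the exchange factor VAV3 (0.46, SE 0.08, limma adjusted p = 0.0027). Without animal 2 VAV3 was at 0.43 and did not pass (adjusted p = 0.141). The kinase LYN was at -0.25 (SE 0.10, adjusted p = 0.121), and its other probe set was at -0.40 (adjusted p = 0.0203). Of 10 genes of leukocyte integrins and adhesion 0 passed in either comparison (3 in each at an unadjusted p under 0.05). For a list of this size that is also not far from the share over all genes. SIRPA, an inhibitory receptor of myeloid cells and neurons, was at -0.15 on its brightest probe set, and of its other 3 probe sets, at -0.27 to -0.21, 1 passed (-0.26, limma adjusted p = 0.0205).

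Of 16 pan-leukocyte genes 1 rose and 1 fell in M1 (6.25% each, beside 8.77% and 5.89% of all genes). CORO1A, an actin regulator of leukocytes also made by neurons, fell in M1 (-0.30, SE 0.05, limma adjusted p = 0.00314), and CYBA, a subunit of the phagocyte NADPH oxidase, rose (0.35, SE 0.09, limma adjusted p = 0.0235). Without animal 2 CORO1A was again at -0.30 but did not pass (adjusted p = 0.196), and CYBA was at 0.25 (adjusted p = 0.512). CYBA did not pass without animal 1 either (0.29, adjusted p = 0.187). Of 4 perivascular macrophage genes the transglutaminase F13A1 fell (-0.42, SE 0.08, limma adjusted p = 0.00379), with 10.97 ± 0.10 in A46 and 10.55 ± 0.05 in M1 (SD, n = 3 animals), and its other probe set fell by 0.29 (limma adjusted p = 0.0178). Without animal 2 it was at -0.43 and did not pass (adjusted p = 0.145).

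Of 17 tetraspanin relatives of CD53, 2 rose (11.8%) and 0 fell in both comparisons, numbers near the background of 8.77% higher and 5.89% lower in M1. CD9, a tetraspanin abundant in myelinating cells, rose in M1 by 1.12 (SE 0.16, limma adjusted p = 0.000625), from 7.35 ± 0.27 in A46 to 8.46 ± 0.33 (SD, n = 3 animals), and its other probe set was at 1.09. TSPAN3 rose by 0.23 (SE 0.06, limma adjusted p = 0.0159), with the same sign and a pass in 2 of its 4 probe sets, and at 0.22 and 0.27 without animal 1 or animal 2 it did not pass (adjusted p = 0.134 and 0.212). The leukocyte tetraspanins CD37 (0.05, SE 0.10) and CD82 (0.18, SE 0.06, limma adjusted p = 0.085) were not called, while the dimmer CD82 probe set was, at 0.33 (adjusted p = 0.00852).

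The lysosomal genes other than CD68 that passed were all higher in M1. Of 21 genes of lysosomes and phagocytosis 7 rose and 0 fell in M1 (33.3%, beside 8.77% of all genes), and 5 rose in the motor areas (23.8%, beside 6.4%), with medians of 0.02 and 0.03. The cholesterol exporter NPC1 rose by 0.84 (SE 0.11, limma adjusted p = 0.00032) and its partner NPC2 by 0.49 (SE 0.08, limma adjusted p = 0.00109). The membrane glycoprotein LAMP2, a relative of CD68, rose by 0.63 (SE 0.10, limma adjusted p = 0.00115). The protease TPP1 rose by 0.36 (SE 0.06, limma adjusted p = 0.00135) on its brightest probe set, while its other 3 probe sets lay between -0.17 and -0.01 and did not pass. Without animal 2 only 1 of the 21 genes passed in M1 and 0 in the motor areas, and LAMP2 (0.48, adjusted p = 0.0692), NPC2 (0.38, adjusted p = 0.122) and TPP1 (0.36, adjusted p = 0.133) were among those lost. The myelin genes had a median M1 difference of 1.21, beside 0.02 for this list, and their part in the lysosomal calls was not tested.

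**Figure D4:**
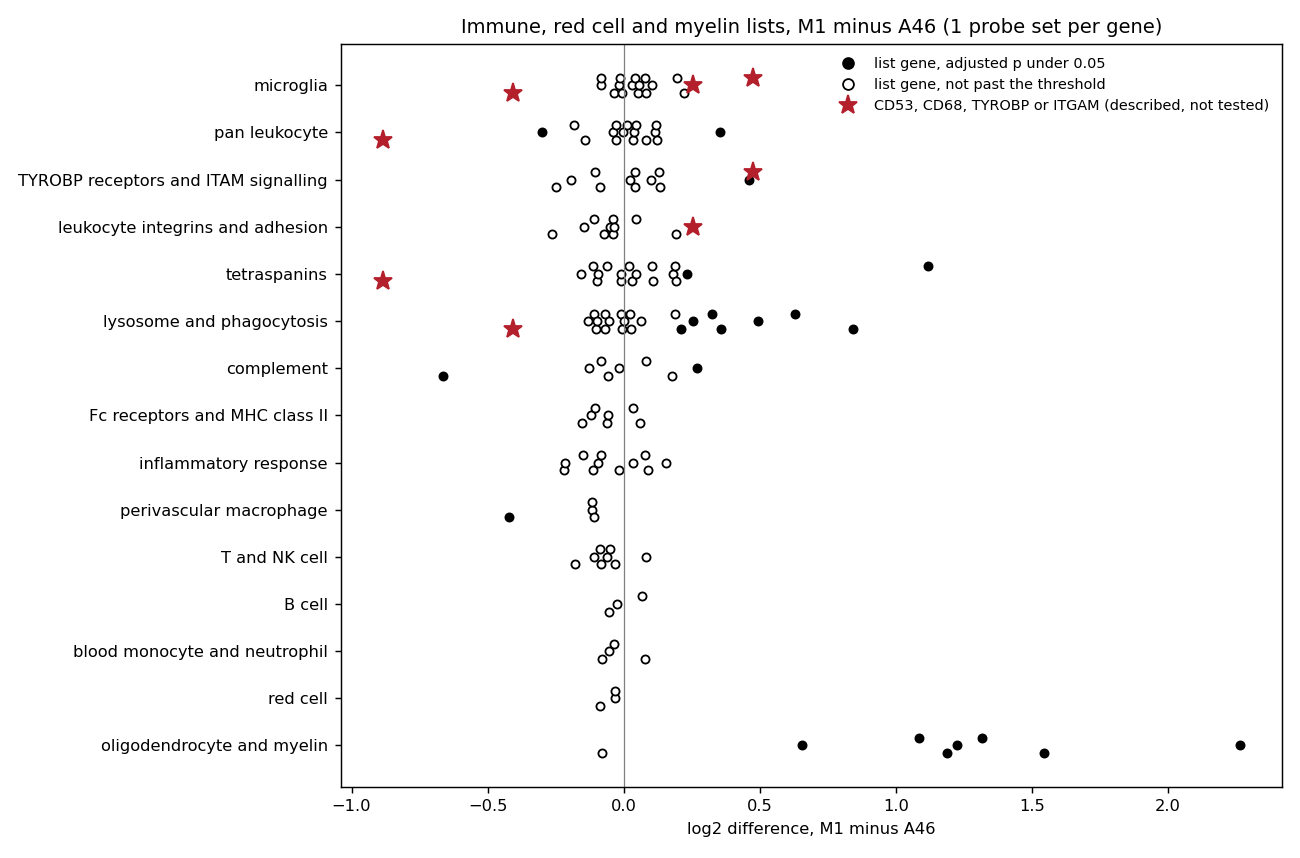
Log2 difference M1 minus A46 of each tested gene by list, with 1 probe set per gene, filled where the adjusted p was under 0.05; stars are CD53 (first probe set), CD68, TYROBP and ITGAM, repeated in each list that holds them. The microglia row has only open points between -0.08 and 0.22, while 7 lysosomal genes and 7 of 8 myelin genes are filled to the right of 0.

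Of 8 complement genes 1 fell and 1 rose in M1 (12.5% each, beside 5.89% and 8.77% of all genes). The protease C1S fell in M1 (-0.67, SE 0.11, limma adjusted p = 0.00119), with its other probe set at -0.59, and CFD rose (0.27, SE 0.08, limma adjusted p = 0.0417). Without animal 2 C1S was at -0.57 (adjusted p = 0.102) and CFD at 0.18 (adjusted p = 0.625), and neither passed. CFD also did not pass without animal 1 (0.32, adjusted p = 0.102) or with no filter on low values (adjusted p = 0.0663). None of the 7 Fc receptor and MHC class II genes (0 at an unadjusted p under 0.05) or the 11 inflammatory genes (3) passed in M1.

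Markers of blood cells showed no area difference that passed. In M1 minus A46 limma called 0 of 8 T and NK cell genes, 0 of 3 B cell genes, 0 of 4 monocyte and neutrophil genes and 0 of 3 red cell genes (1, 0, 0 and 0 at an unadjusted p under 0.05), with medians of -0.07, -0.02, -0.04 and -0.03. Over all genes 8.77% rose and 5.89% fell, so 0 calls in lists this small is near that share. HBB, the beta-globin of red cells, was at -0.09 (SE 0.07). The summed intensity of the 3 red cell genes was 384 to 435 in A46 and 368 to 424 in M1.

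Some markers of other brain cell types also passed in M1 minus A46, where 8.77% of all genes were higher and 5.89% lower. Of 8 oligodendrocyte and myelin genes 7 rose in M1, with a median of 1.21, and their summed intensity was 9971 to 13540 in A46 and 19067 to 26081 in M1. The list's median M1 difference was 1.03 in animal 1, 1.67 in animal 2 and 0.81 in animal 3. That of TYROBP was 0.50, 0.85 and 0.09 in the same order of animals. Of 9 neuronal genes 3 rose (33.3%) and 1 fell (11.1%), among them the neurofilament NEFH (2.24, SE 0.08) and the kinase CAMK2A (-0.53, SE 0.14). Of 8 astrocyte genes 2 rose (25%), as did 2 of 5 oligodendrocyte precursor genes (40%). Of 8 endothelial and pericyte genes 1 rose (12.5%), near the share over all genes. Of 7 meningeal genes 1 rose in M1 (14.3%, near the share over all genes) and 0 fell, with a median of -0.18. The gene that rose was SLC47A1 (0.29, SE 0.08, limma adjusted p = 0.0359). In the motor areas SLC47A1 rose (0.27, limma adjusted p = 0.0251) and COL3A1 fell (-0.21, limma adjusted p = 0.0499). The collagen COL1A2 was at -0.55 in M1 (SE 0.22, limma adjusted p = 0.134), did not pass, and was higher in M1 in 1 of 3 animals. The summed intensity of the meningeal genes was 909 to 1544 in A46 and 917 to 1071 in M1. The part of these cell types in the differences of CD53, CD68, TYROBP, ITGAM, F13A1 and C1S was not tested.

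Genes next to the 4 on the chromosome, by their order in the RefSeq annotation of assembly T2T-MMU8v2.0, did not share a common direction with them. Beside CD53 the potassium channel genes KCNA3 and KCNA2 were at -0.38 (SE 0.10, limma adjusted p = 0.0203) and 0.32 (SE 0.08, limma adjusted p = 0.0158) in M1 minus A46, and on its other side DRAM2 was at 0.17 (SE 0.09). Beside TYROBP the adaptor HCST was at 0.02 (SE 0.09) and LRFN3 at -0.01 (SE 0.06). Near CD68 the protease SENP3 was at -0.24 (SE 0.07, limma adjusted p = 0.0353) and MPDU1 at -0.06 (SE 0.06), and TRIM72, which overlaps ITGAM in that annotation, was at -0.04 (SE 0.07). Without animal 1 or without animal 2 KCNA3 (-0.28 and -0.38, adjusted p = 0.163 and 0.313) and SENP3 (-0.20 in both, adjusted p = 0.212 and 0.498) did not pass, nor did KCNA2 without animal 2 (0.36, adjusted p = 0.193).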

How the data were processed

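Total RNA was taken from each piece, and a biotin-labelled sample made from it was hybridised to one Affymetrix Rhesus array. The deposited values are linear intensities, 1 per probe set, made by the authors with RMA per the submitters' processing notes. Its version, and which arrays entered it together, were not stated. RMA equalises array distributions, so a shift of all transcripts in an area cannot be seen. Probe sets were named from the platform annotation.

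Intensities were converted to log2 with a floor of 1, and 99 control probe sets were removed from 52865. Probe sets with a mean log2 value of at least the median (5.62, intensity 49.3) were tested, 26383 in all. A listed gene was represented by its brightest tested probe set. Hemispheres of an animal and area were averaged to 12 means, and limma 3.58.1 in R 4.3.3 was fitted with area and animal, a trend with intensity, and Benjamini-Hochberg adjustment over all tested probe sets; adjusted p under 0.05 was called, two-sided. Left minus right was fitted on 24 arrays, with the 12 left and right pairs as the block.

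The animal is a block because all areas came from the same 3 animals. With the area means taken out, the 18 same-animal pairs correlated at 0.207 to 0.85 and the 36 pairs from different animals and areas at -0.561 to 0.065. Taking out a mean over 3 animals itself pushes pairs from different animals below 0, so nothing is read from their sign. The fits were tested on simulated data drawn without an animal effect, which cannot check the block. The 4 genes and the lists were chosen with earlier results of these data known. By the naming rule each list gave up to 4 genes of smallest p, besides 15 fixed partners, of which 13 are on the array and 11 were tested, and the 5 genes most alike to each of the 4; neighbours were taken by position. No sequences are printed, since none was used here.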

Additional observations from a re-analysis of the deposited data

Results flagged for a closer look

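Over 28 sets of 6 arrays (7 probe sets in 4 areas), 1 array stood apart: TYROBP in the left A46 piece of animal 1 was 7.19, with the next array at 7.14, a gap of 0.661 of the range. Such a rule marks about 1 set in 20 by chance, and the A46 range was narrow. The second CD53 probe set was higher on the left in all 3 animals in A46 (mean 0.0795) and lower on the left in all 3 in PMv (mean -0.0477). The F test of that difference between areas gave a limma adjusted p = 0.999.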

How the results depend on the processing

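The M1 and motor differences of both separating CD53 probe sets, CD68, TYROBP and ITGAM kept their sign under every alternative run. Those that moved by more than the SD over animals were in M1 minus A46: the first CD53 probe set was -0.99 in left and -0.77 in right hemispheres alone, and the second -1.67, -1.54 and, with log2(intensity + 16), -1.50. The immune lists had 15 calls in M1 minus A46 and 11 in the motor areas. Leaving out one animal gave 2 to 18 and 0 to 24, without the animal (replicate) block there were 7 and 3, with left hemispheres alone 9 and 7, and with no filter 7 in the motor areas. The lysosomal genes higher in M1 (7) were 4 with no replicate block and 4 with left hemispheres alone, and 1 to 7 with one animal left out. In the motor areas (5) they were 2 with no replicate block and 0 to 7 with one animal left out. The microglia list had 0 to 2 calls in the motor areas with one animal left out. All probe sets called in M1 minus A46 (3391) and motor areas minus A46 (2629) came to 404 to 5407 and 177 to 6459 with one animal left out, 1056 and 479 with no replicate block, and 1263 and 919 with left hemispheres alone. For PMd minus PMv, 2 calls became 0 to 1398 with one animal left out (without animal 3 the highest), 0 with no replicate block and with left hemispheres alone, and 1 with quantile normalisation and with right hemispheres alone. Left minus right gave 38 calls on per-animal means and 0 of the 6 probe sets. The block changed no call of the 6 probe sets in either test.

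Some values near 0 changed sign, and the cause was not tested. CD68 in PMd minus PMv was -0.0218 with quantile normalisation, -0.0457 with right hemispheres alone and -0.0333 to 0.161 with one animal left out. In left minus right, with one animal left out, the second CD53 probe set was -0.0380 to 0.00208, the third -0.0719 to 0.0459 and TYROBP -0.0276 to 0.0455. In M1 minus A46, AIF1 was 0.0058 and TREM2 -0.0015 in right and left hemispheres alone, and with probe sets averaged ITGB2 was 0.00803 and TLR4 0.0321. With one animal left out, C1QA was -0.121 to 0.0985, AIF1 -0.0704 to 0.0414, CX3CR1 -0.112 to 0.131 and CD37 -0.0126 to 0.12. Without animal 3, VCAM1 and NFKBIA passed (adjusted p = 0.0237 and 0.00731). Without the block, CYBA, VAV3, TSPAN3, TPP1, C1S, CFD, KCNA3, KCNA2 and SENP3 did not pass in M1 minus A46 (adjusted p = 0.0644 to 0.641).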
